A study of Mus musculus with 6 samples.

Results

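The part of the study described here is the change in ventral prostate RNA that both 15-LOX2 transgenic mouse lines had in common, read from 4 of the 6 two-colour arrays of the series. Young wild type mice, aged 2.5 months, supplied the green (Cy3) RNA throughout, and on these 4 arrays transgenic mice of the same age supplied the red (Cy5) RNA, all on the FVB background. The transgene is full-length 15-LOX2 in fl26 and splice variant b in svb9, and each genotype is represented by 1 line with 2 arrays from independent samples. The promoter that drives the transgenes is not given in the sources used here. The other 2 arrays carried wild type mice aged 15 months in red, and they share the dye layout and the young control with the transgenic arrays but not the genotype or age. Each RNA came from pooled prostates, of 3 mice by the sample labels and of 6 by the design text. Transgenic RNA was always in red, so dye and genotype cannot be told apart against young wild type, and a fixed dye effect of a probe cancels between red groups.

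15-LOX2 is a lipoxygenase that adds oxygen to arachidonic acid and yields 15-HETE, a lipid mediator that can act on the nuclear receptor PPAR-gamma. The enzyme is known from differentiated epithelium of the human prostate, where it has been linked to restrained growth and to cell senescence, and splice variants of it lack parts of the full-length protein. The mouse ventral prostate is a gland of secretory luminal cells over a thin basal layer, set in smooth muscle and fibroblast stroma.

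A probe entered the comparison when its signal stood well above background in both dyes on all 4 transgenic arrays, which 14204 of 41174 probes did, and 12607 of these were named as 9695 genes. Values are log2 ratios of red over green after background correction and loess, so a positive value means more signal in the transgenic pool than in young wild type. A shared direction means the same sign on all 4 arrays, and it held for 4684 probes, of which 2634 were higher in the transgenic pools (18.5% of those tested) and 2050 were lower (14.4%). A mean of at least 1.5-fold with a shared direction was seen for 128 probes, 71 higher and 57 lower. At least 2-fold was reached by 9 higher and 3 lower. At the 1.5-fold border lay Rab1a, a small GTPase of vesicle traffic, at a mean of 0.5855 just inside and P2ry2, a nucleotide receptor, at 0.5843 just outside.

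The arrays differed in signal and in image analysis date. In red, 27070 and 27809 probes were well above background on array 1 of fl26 and of svb9, which share date 1, against 17568 and 14423 on the second arrays, which belong to dates 2 and 3. Date 2 also holds old array 1 and date 3 old array 2, on which 2709 and 12156 red probes were well above background. Of the tested probes, 18% were well above background in red on old array 1 and 79.8% on old array 2. The log2 ratios spread more widely on the second arrays (SD across probes 0.36 for fl26 and 0.29 for svb9) than on the first (0.24 and 0.17).

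When the 4 arrays were taken as 1 group with limma, no probe passed an adjusted p of 0.05 (0% of 14204 tested). The smallest adjusted p was 0.119. At an unadjusted p below 0.05, limma counted 1724 probes higher (12.1%) and 1449 lower (10.2%). With the image analysis date as a term, limma called 1321 probes higher (9.3%) and 1357 lower (9.55%). Within date 1 alone, limma called 62 probes on its 2 arrays, and on the 2 later arrays it called 3817. The date term sets date 1 against the later dates, with dates 2 and 3 counted as 1 level. On these 4 arrays it divides them exactly as the replicate number does. It assumes that date 1 moves both lines alike, and that date 2 moves fl26 as date 3 moves svb9. Genes below are therefore given by their values on each array, and "passed with the date term" marks the calls of that fit.

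Scaling moved the balance of directions. When each array was centred on its median instead of by loess, the median of all tested genes moved from 0.01 to 0.15, and 684 probes were higher on all 4 arrays against 24 lower. Centred on the median of the tested probes themselves, the split was 1594 higher and 1394 lower.

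Among probes with a gene name in the reference table, the genes of smallest unadjusted p that were higher on all 4 arrays were Slc25a46, Dennd3, Fgl1, Med13, Izumo4, Plxna1, Hoxc5 and Aldh8a1, each at an adjusted p of 0.119 in limma. A further 6 higher probes without such a name had a smaller p than the last of these. Each of the 8 passed with the date term, but that fit uses the same 4 arrays that chose them. It called 119 of the 128 probes of the 1.5-fold set, so a pass adds little. Plxna1, a receptor for semaphorins, read 1.11 and 1.54 on the fl26 arrays and 0.62 and 1.37 on the svb9 arrays, with a mean of 1.16 (SE 0.15, n = 4). Here and below, SE is limma's moderated standard error, which draws a probe's spread toward that of all probes. For uneven genes it is smaller than the spread of the 4 values alone would give. The SD of the 4 Plxna1 values was 0.40. On the old arrays Plxna1 read 1.62 and 2.03, above every transgenic array, with signal well above background on all 6. Aldh8a1, an aldehyde dehydrogenase, read 0.75 and 1.07 in fl26, 0.84 and 1.66 in svb9, and 1.05 and 1.76 in old wild type. Its transgenic and old values overlap. Med13, a subunit of the Mediator kinase module, read 0.50 and 0.59 in fl26, 0.49 and 0.72 in svb9, and 0.38 and 0.80 in old wild type. A second Med13 probe had a mean of -0.01, so the 2 probes of this gene disagree.

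Slc25a46, a carrier-family protein of the mitochondrial outer membrane, read 0.69 and 0.69 in fl26 and 0.49 and 0.54 in svb9, with a mean of 0.60 (SE 0.07, n = 4). Its single old value was 0.01, near background in red. Fgl1, a fibrinogen-like secreted protein, read 0.57 and 0.54 in fl26 and 0.50 and 0.73 in svb9, below the single old value of 2.02. Dennd3, an activator of Rab GTPases, was close to it at 0.57, 0.55, 0.51 and 0.73, with a single old value of 1.68. The homeobox gene Hoxc5 had a mean of 0.71 and 1 old value of 1.20, and Izumo4, of the Izumo sperm protein family, had a mean of 0.69 and no old value. The second Izumo4 probe had a mean of 0.01 with mixed signs and old values of -0.06 and 0.09. Of the probes that lead for these 8 genes, Slc25a46 was the 1 with an old value near 0.

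**Figure D1:**
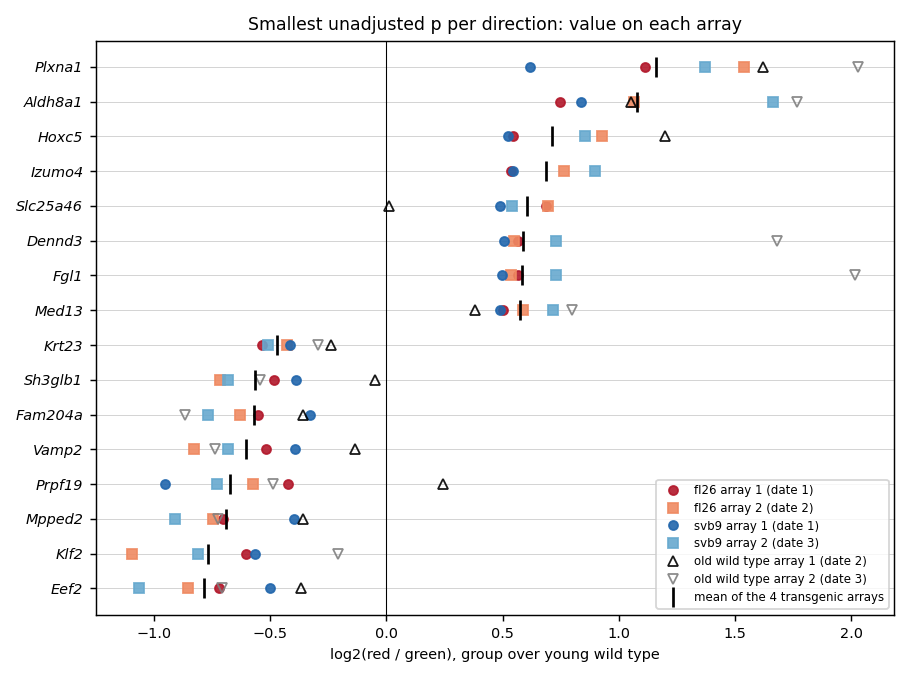
Log2 ratio (x axis) of the 8 higher and 8 lower genes of smallest unadjusted p, with 1 symbol per array and a bar at the mean of the 4 transgenic arrays. All 4 transgenic arrays lie on 1 side of 0 for each gene, and open triangles show that the old wild type arrays mostly lie on the same side, as for Plxna1 at 1.62 and 2.03.

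Lower on all 4 arrays with the smallest unadjusted p among named genes were Eef2, Klf2, Krt23, Mpped2, Sh3glb1, Prpf19, Vamp2 and Fam204a, at adjusted p of 0.119 to 0.129 in limma, with 6 unnamed probes before the last of them. All 8 passed with the date term, again on the arrays that chose them. Eef2, the elongation factor that moves the ribosome along the message, read -0.72 and -0.85 in fl26 and -0.50 and -1.06 in svb9, with a mean of -0.78 (SE 0.10, n = 4). The old arrays read -0.37 and -0.71. Its other tested probes had means of -0.26 and -0.05, so its size rests on 1 probe. Klf2, a transcription factor of endothelium and quiescent lymphocytes, read -0.60 and -1.09 in fl26 and -0.56 and -0.81 in svb9, with red saturated on 2 arrays, and its second probe had a mean of -0.07.

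Krt23, an epithelial keratin, was the most even of these 8 lower genes at -0.54 and -0.42 in fl26 and -0.42 and -0.51 in svb9, with a mean of -0.47 (SE 0.06, n = 4). The old arrays read -0.24 and -0.29, nearer 0 than any transgenic array. Prpf19, a ubiquitin ligase of the spliceosome, read -0.42 and -0.57 in fl26 and -0.95 and -0.73 in svb9, whereas the old arrays read 0.24 and -0.49. Mpped2, a metallophosphoesterase, had a mean of -0.69 and old values of -0.36 and -0.72, and its second probe a mean of -0.13 with mixed signs. Vamp2, a vesicle fusion protein, had a mean of -0.60 and old values of -0.13 and -0.74. Sh3glb1, which bends membranes in autophagy, had a mean of -0.57 and old values of -0.05 and -0.54. Fam204a had a mean of -0.57 and old values of -0.36 and -0.86. For Eef2, Prpf19, Mpped2, Vamp2, Sh3glb1 and Fam204a, 1 old array lay within the transgenic range.

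The old arrays mark ratios that recur with the dye layout and the young control where the transgene is absent. Of the 71 probes at least 1.5-fold higher with a shared direction, 36 had a value on both old arrays, and 26 of these were higher on both. Of the 57 lower probes, 45 had both values and 40 were lower on both. Among all tested probes with both values, 42.4% had the direction of the transgenic mean on both old arrays. Where signal was well above background on all 6 arrays, 13 of 13 higher probes of the 1.5-fold set went the same way in old wild type. So did 8 of 11 lower probes. Under the same filter, 145 of 201 of all probes higher on all 4 arrays did so, and 122 of 347 lower ones. The filter asks for red signal on the old arrays and can favour probes higher there, so agreement of higher probes can be partly built in. Young wild type is the control in all these comparisons, and whether the arrays shared a pool of it is not stated. Dye, age and the control pool therefore cannot be told apart in the ratios that recur.

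**Figure D2:**
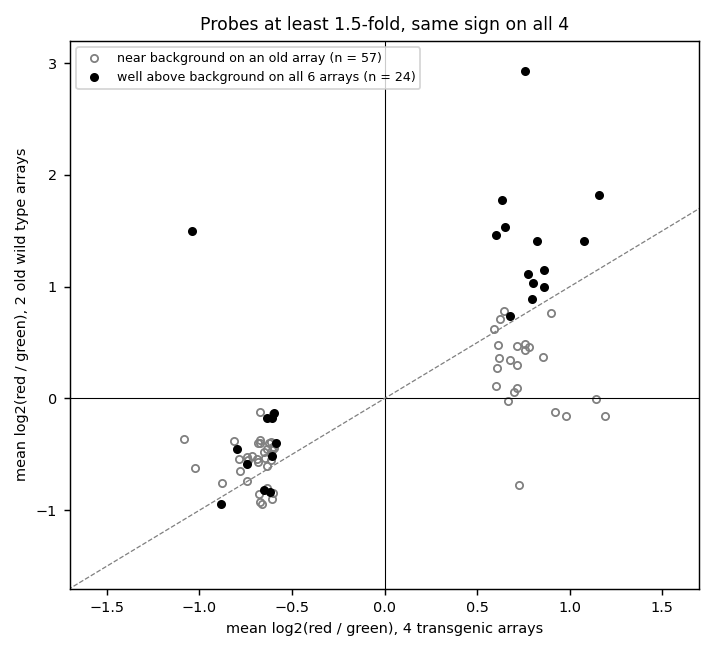
Mean log2 ratio of the 4 transgenic arrays (x axis) against that of the 2 old wild type arrays (y axis) for the 81 probes at least 1.5-fold with a shared direction and a value on both old arrays. Filled points are the 24 probes well above background on all 6 arrays, the dashed line marks equal values, and the filled point at upper left is BU511373.

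The direct comparison of transgenic with old wild type, in which a fixed dye effect cancels but age does not, passed no probe in limma (0% of 14013 tested). At an unadjusted p below 0.05 it counted 1282 probes (9.15%). The absence of calls depended on scaling: the same comparison called 5829 probes, all higher, with centring on the array median. With centring on the tested probes it called 2810. The 5 named genes of smallest unadjusted p with a shared direction were all lower in the transgenic arrays than in old ones, and 7 unnamed probes had a smaller p than the last of them. Wdr81, a protein of endosomal maturation, read 0.17, 0.14, 0.17 and 0.56 on the transgenic arrays and 1.59 and 1.18 on the old arrays, a difference of -1.12 (SE 0.17). Sf3b2, a spliceosome subunit, read 0.07, 0.08, 0.17 and 0.29 against 0.98 and 0.88, a difference of -0.78. The groups do not overlap for either probe, as for 18.4% of the 12683 tested probes with both old values. The second Wdr81 probe overlapped, at -0.13, 0.16, 0.10 and 0.06 against 0.13 and 0.67. Trim55, a muscle RING finger protein, had a mean of 0.32 and a single old value of 2.08, and the chaperone Canx had a mean of 0.14 and a single old value of 1.43. Of Canx, the 2 other tested probes differed from old wild type by -0.00 and 0.23. Fgl1, above, was the fifth.

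Among the genes at least 2-fold apart from young wild type, which were chosen after their values were seen, the lines differed in size. Rb1cc1, a scaffold of autophagy initiation, read 2.51 and 2.01 in fl26 but 0.19 and 0.05 in svb9, so its mean of 1.19 describes neither line. A second Rb1cc1 probe read 1.96 and 1.71 in fl26 and 0.23 and 0.02 in svb9, and the other 2 had means of 0.18 and 0.11. BC020078 read 1.96 and 2.72 in fl26 and 0.18 and 0.01 in svb9. Creb3l4, a membrane-bound transcription factor of luminal prostate cells, read -1.71 and -1.54 in fl26 and -0.22 and -0.63 in svb9. Sh2d4a, an SH2 adaptor, read -1.68 and -1.81 in fl26 and -0.37 and -0.47 in svb9. In these 4 genes the fl26 arrays do not overlap the svb9 arrays, as in 6 of the 12 probes at least 2-fold apart (50%) and in 23.1% of all 14204 tested.

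Calca, which encodes calcitonin and the peptide CGRP, read 1.92 and 1.29 in fl26 and 1.10 and 0.25 in svb9, with a mean of 1.14 (SE 0.24, n = 4). The old arrays read 0.13 and -0.14, near background, and the difference from old was 1.14 (unadjusted p = 0.016 in limma, not passed after adjustment). Clu, the secreted chaperone clusterin, read 1.52 and 2.62 in fl26 and 0.99 and 0.09 in svb9, with red saturated on 1 array and no old value. Bcorl1, a transcriptional corepressor, read 0.69 and 1.63 in fl26 and 0.65 and 1.91 in svb9, higher on both second arrays. Sptbn4, a spectrin, read 0.39 and 2.38 in fl26 and 0.43 and 1.94 in svb9, with red saturated on 2 arrays, while its second probe had a mean of -0.00. Dcaf12l2 read 0.65 and 1.60 in fl26 and 0.58 and 1.52 in svb9, below its single old value of 2.50. For these probes of Bcorl1, Sptbn4 and Dcaf12l2 the arrays divide by date and not by line.

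BU511373, a transcript named only by its accession in the array file, read -1.05 and -1.27 in fl26 and -1.11 and -0.73 in svb9, with red saturated on 2 arrays. It read 2.95 and 0.05 on the old arrays. Of the 3 probes at least 2-fold lower, it was the 1 with similar values in both lines.

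Over the 128 probes of the 1.5-fold set, the fl26 mean was at least 2 times the svb9 mean on the log2 scale for 30, and the reverse held for 3. The mean of the later arrays was at least 2 times that of date 1 for 54 and the reverse held for 8. These counts were not made over all tested probes. The fl26 mean was larger in size than the svb9 mean for 49 of the 71 higher and 42 of the 57 lower. Over all tested probes that held for 8621 of 14204. Saturation touched 12 of the 128. The test of fl26 against svb9 passed no probe in limma (0%), and at an unadjusted p below 0.05 it counted 307 probes (2.16%). With the replicate number as a block, limma called 126 of 14204 probes, 65 higher and 61 lower in fl26.

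The list counts below stand against 18.5% higher and 15% lower on all 4 arrays among all 9695 genes. In the lipoxygenase and leukotriene list, 5 of 19 genes were tested and none had a shared direction. Alox12, the platelet-type 12-lipoxygenase, read 0.25 and 0.43 in fl26 and -0.07 and 0.45 in svb9, and Alox5ap, which presents arachidonic acid to 5-lipoxygenase, had a mean of 0.09. Alox15 was well above background in red on 2 of 4 arrays, and Alox8, the mouse counterpart of 15-LOX2, on 0 of 4. The Alox8 probe is designed for the mouse gene, so it is no check of the transgene.

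Downstream of arachidonic acid, the prostanoid list had 9 tested genes, with 1 higher and 2 lower on all 4 arrays. Ptgr1, a reductase that inactivates prostaglandins and leukotriene B4, read 0.45 and 0.36 in fl26 and 0.15 and 0.24 in svb9. Ptges, the inducible prostaglandin E synthase, read -0.36 and -0.28 in fl26 and -0.28 and -0.13 in svb9, and -0.20 and -0.30 in old wild type. Cbr1, a carbonyl reductase of prostaglandins, had a mean of -0.28 and old values of -0.27 and -0.15. Hpgd, which degrades prostaglandins and 15-HETE, had a mean of -0.13 with signs that differed between arrays, and centring on the array median turned that mean to 0.03. Ptgs1 and Ptgs2, the cyclooxygenases, were not well above background in red on all 4 arrays.

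Pparg itself read 0.10 and 0.45 in fl26 and 0.05 and 0.38 in svb9, with a mean of 0.24 (SE 0.09, n = 4), while the old arrays read -0.21 and -0.09. All 4 transgenic arrays lay above both old arrays. The difference was 0.39 (unadjusted p = 0.0312 in limma, not passed after adjustment). In the list of PPAR and fatty acid oxidation genes, 6 of 24 tested were higher and 4 lower on all 4 arrays, with 3 and 3 passing with the date term. That is 12.5% each way, near the 9.46% higher and 10.4% lower of all 9695 genes. Angptl4, a lipoprotein lipase inhibitor and PPAR target, read 0.93 and 0.54 in fl26 and 1.06 and 0.26 in svb9, a mean of 0.70 (SE 0.14), against 0.00 and 0.12 in old wild type. Etfa, a subunit of the electron transfer flavoprotein, had a mean of 0.34. Its partner Etfb had a mean of -0.39, and Acaa1a, the peroxisomal thiolase, one of -0.48 that came from the second arrays. The other Acaa1a probes had means of -0.19 and -0.02. In the cholesterol and fatty acid synthesis list 6 of 25 were higher and 3 lower, led by Fdft1, squalene synthase, at 0.44 and Hsd17b7 at -0.33.

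Interferon response genes are the antiviral programme that cells switch on when they sense interferon. Of 26 tested, none was higher and 7 were lower on all 4 arrays (26.9%), against 18.5% higher and 15% lower among all 9695 genes. With the date term, 7 passed lower and none higher, against 10.4% and 9.46% of all genes. The list median was -0.12, and it was -0.44 and -0.09 on the fl26 arrays, -0.07 and -0.01 on the svb9 arrays and -0.03 and -0.05 on the old arrays. Fl26 array 1 stood apart from the rest. With centring on the array median the list median was 0.02 and no member was lower on all 4 arrays, while its difference from the median of all genes was -0.13 under both scalings.

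Rtp4, a chaperone for surface receptors induced by interferon, read -1.51 and -0.62 in fl26 and -0.67 and -0.44 in svb9, with a mean of -0.81 (SE 0.17, n = 4), and -0.58 and -0.18 in old wild type. Oasl2, of the 2'-5'-oligoadenylate synthetase family, read -1.05 and -0.64 in fl26 and -0.27 and -0.45 in svb9, against -0.25 and -0.03. Dhx58, which encodes the RNA sensor LGP2, read -0.64 and -0.34 in fl26 and -0.26 and -0.38 in svb9, and both old arrays were near 0 at -0.04 and -0.05. Its 4 transgenic arrays lay below both old arrays, a difference of -0.36 (unadjusted p = 0.0286 in limma, not passed after adjustment). Ifi44, an interferon-induced protein, read -1.33 on fl26 array 1 and between -0.35 and -0.03 on the other 3.

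The remaining 3 lower members are added because the list leads this account, and they were chosen after their values were seen. Stat2, a transcription factor that carries the type I interferon signal, read -0.46, -0.44, -0.09 and -0.61, and -0.27 and -0.36 in old wild type. Bst2, the virus-tethering protein tetherin, had a mean of -0.40, and Igtp, an interferon-gamma-induced GTPase, one of -0.21.

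Interferon-responsive promoters are recognised through a short element, and the promoters of these lower members were read for it because they share a direction. The motif searched was GAAANNGAAA on both strands, in the 250 bases before the annotated start (RefSeq, build GRCm38.p6). It occurred in 978 of 32851 promoters (2.98%), in 3 of the 5 lower members with an entry and in 2 of the 12 other tested members of the list with an entry. The 3 with a match are shown 5′ to 3′ on the gene's strand, with the matching bases in capitals. The windows lie at chr10:128270248-128270497 for Stat2 (plus strand), chr8:71537473-71537722 for Bst2 (minus strand) and chr11:58199306-58199555 for Igtp (plus strand).
Stat2: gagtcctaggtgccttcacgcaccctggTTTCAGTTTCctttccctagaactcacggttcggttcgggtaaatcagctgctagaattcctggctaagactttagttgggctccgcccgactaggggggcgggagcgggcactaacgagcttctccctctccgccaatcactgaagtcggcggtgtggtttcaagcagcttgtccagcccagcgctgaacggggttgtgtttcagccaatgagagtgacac
Bst2: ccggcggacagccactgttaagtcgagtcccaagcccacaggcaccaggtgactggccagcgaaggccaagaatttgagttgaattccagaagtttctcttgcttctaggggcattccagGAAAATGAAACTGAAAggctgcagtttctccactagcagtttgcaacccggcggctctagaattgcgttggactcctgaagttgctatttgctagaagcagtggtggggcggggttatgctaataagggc
Igtp: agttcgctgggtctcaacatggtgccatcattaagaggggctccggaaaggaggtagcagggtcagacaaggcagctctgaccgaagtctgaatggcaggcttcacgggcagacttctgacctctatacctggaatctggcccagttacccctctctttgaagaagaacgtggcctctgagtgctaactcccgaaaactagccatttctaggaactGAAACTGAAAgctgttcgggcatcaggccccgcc
The Stat2 match reads the motif on the opposite strand 222 bases before the start. Bst2 holds 2 overlapping matches, and the Igtp match lies 34 bases before the start. Oasl2 and Ifi44 had no match in this window. A match is a sequence description and says nothing of binding.

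Antigen presentation genes went with neither direction as a group. Of 15 tested in the list of MHC class I and II genes, none was higher and 2 were lower on all 4 arrays (13.3%). Among all genes 18.5% were higher and 15% lower. With the date term 3 passed higher (20%) and 1 lower (6.67%), against 9.46% and 10.4% of all genes. Tap2, a subunit of the peptide transporter, read -0.36 and -0.31 in fl26 and -0.24 and -0.07 in svb9, whereas the old arrays read 0.30 and 0.31 with signal well above background. The difference was -0.55 (SE 0.13, unadjusted p = 0.00218 in limma, not passed after adjustment). Tapbp, which loads peptide on class I molecules, had a mean of -0.12 that centring on the array median turned to 0.04, and its second probe had mixed signs. The list member of lowest mean, at -1.20, had no shared direction. Class I probes outside these counts, chosen after their values were seen, went both ways. H2-Q1 read 0.86 and 1.22 in fl26, 0.18 and 0.87 in svb9, and -0.14 and 1.06 in old wild type. H2-T10 read -0.70 and -1.23 in fl26, -0.40 and -1.19 in svb9, and -0.67 and -0.84 in old wild type.

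Fibroblast and matrix genes mark the stroma of the gland. Of 35 tested, 11 were higher on all 4 arrays (31.4%) and none was lower, against 18.5% and 15% of all genes. The list median was 0.12. With the date term 11 passed higher (31.4%, against 9.46% of all genes). The number higher on all 4 arrays was 2 with centring on the array median and 6 with centring on the tested probes. The median was 0.31 over the date 1 arrays and -0.03 over the later arrays, so it was above 0 over the first pair and below 0 over the second. On single arrays it was 0.43 and -0.05 in fl26, 0.19 and 0.03 in svb9, and 0.06 and -0.14 in old wild type. Ly6a, the surface antigen Sca-1, read 1.22 and 0.87 in fl26 and 0.63 and 0.32 in svb9, with a mean of 0.76 (SE 0.14, n = 4). It read 0.06 and 0.80 in old wild type, the second within the transgenic range. Ogn, the small matrix proteoglycan osteoglycin, read 0.73 and 0.47 in fl26 and 0.35 and 0.42 in svb9, and 0.07 and -0.18 in old wild type, with no overlap. Its difference from old was 0.55 (unadjusted p = 0.00556 in limma, not passed after adjustment). Col6a3, a chain of collagen VI, read 0.79 and 0.97 in fl26 and 0.44 and 0.08 in svb9. Fbn1, the microfibril protein fibrillin-1, read 0.90 and 0.67 on date 1 and 0.15 and 0.05 on the later arrays. In bulk tissue, more cells of a type and more RNA per cell cannot be told apart.

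**Figure D3:**
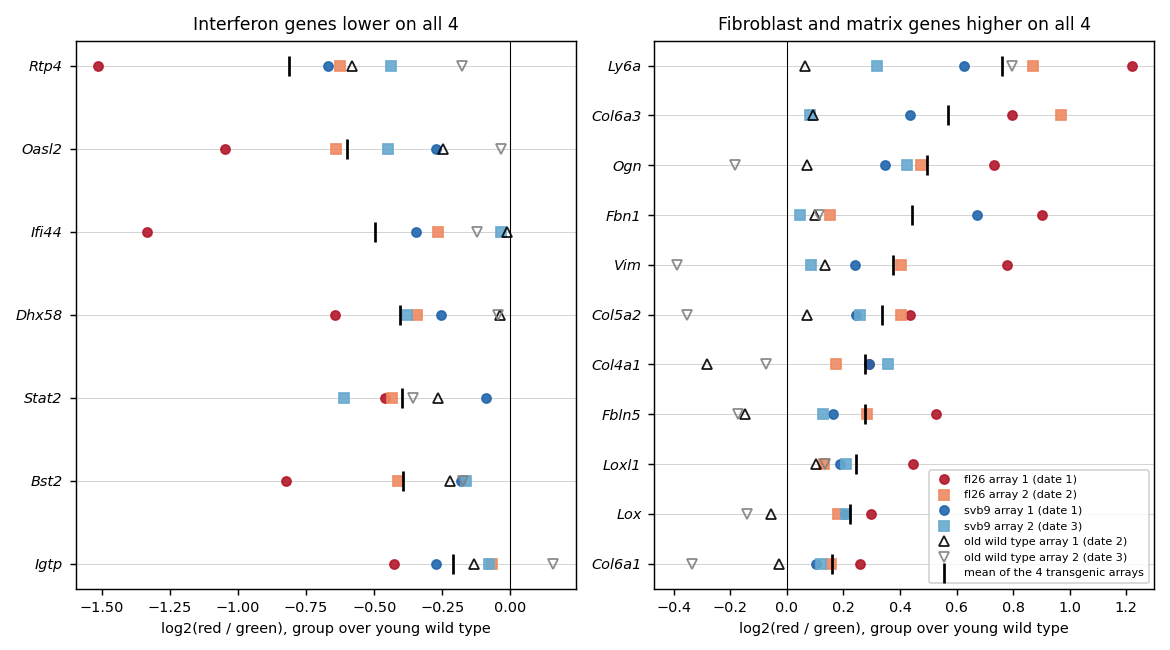
Log2 ratio (x axis) on each array for the 7 interferon response genes lower on all 4 transgenic arrays (left) and the 11 fibroblast and matrix genes higher on all 4 (right), with bars at the transgenic mean. Fl26 array 1 is the most extreme array for 6 of the 7 interferon genes, and the old arrays of Ogn lie at 0.07 and -0.18, left of every transgenic array.

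All 14 tested macrophage markers had a mean above 0. Of these, 5 were higher on all 4 arrays (35.7%, against 18.5% of all genes) with none lower, and 1 passed higher with the date term (7.14%, against 9.46%). The number higher on all 4 was 2 with centring on the array median and 1 with centring on the tested probes. The list median of 0.12 was 0.18 on date 1 and 0.00 on the later arrays, and the old arrays read -0.04 and 0.19. Lyz2, lysozyme of macrophages, read 1.11 and 0.47 in fl26 and 0.30 and 0.06 in svb9. Lgals3, the lectin galectin-3, read 0.21 and 0.95 in fl26 and 0.07 and 0.25 in svb9. Csf1r, the receptor for the macrophage growth factor, had a mean of 0.18, and Tyrobp, a signalling adaptor of myeloid cells, one of 0.16. T and NK cell markers had 4 tested genes, 2 higher and 1 lower, and of B and plasma cell markers none was tested. Endothelial markers had 1 of 12 higher, Lyve1 of lymphatic vessels, at 1.02 and 0.57 in fl26 and 0.19 and 0.12 in svb9. A probe of Ly6c1, also an endothelial marker, was not used in that count. It read 1.03 and 1.39 in fl26, 0.51 and 0.50 in svb9, and 0.36 and 0.38 in old wild type. Whether a different share of stroma or macrophages went into the pools was not tested.

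In the list of chemokines and factors secreted by senescent cells, 5 of 24 were higher (20.8%) and 2 lower (8.33%) on all 4 arrays. Among all genes the shares were 18.5% and 15%. Cxcl14, a chemokine of epithelium and stroma, read 0.49 and 0.51 in fl26 and 0.24 and 0.36 in svb9, with a mean of 0.40 (SE 0.07, n = 4). Both old arrays were below 0 at -0.28 and -0.19. The difference was 0.64 (SE 0.13, unadjusted p = 0.000897 in limma, not passed after adjustment). Plat, tissue plasminogen activator, read 0.40, 0.77, 0.22 and 0.44, against -0.10 and 0.17 in old wild type. Ccl6, a myeloid chemokine, had a mean of 0.49. Timp2, an inhibitor of matrix proteases, had a mean of -0.50, with -0.74 and -0.95 on the later arrays.

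Cell cycle inhibitors and senescence genes had 2 of 26 higher (7.69%) and 6 lower (23.1%) on all 4 arrays, against 18.5% and 15% of all genes. Cdkn2c, the CDK4 and CDK6 inhibitor p18, read 0.49 and 0.67 in fl26 and 0.19 and 0.60 in svb9, with a mean of 0.49 (SE 0.09), and its second probe had one of 0.20. Btg2, an antiproliferative p53 target, had a mean of -0.36 and old values of -0.26 and -0.56, while its second probe had a mean of -0.04 with mixed signs. Mdm2, the ubiquitin ligase for p53, had one of -0.34, and Hmga1, a chromatin protein, one of -0.50, both further from 0 on the second arrays. Cdkn1a and Cdkn1b were not well above background in red on all 4 arrays, and Cdkn2a was so on none. In the list of proliferation and DNA replication, 4 of 26 were higher and 5 lower. Pcna, the sliding clamp of DNA polymerase, read 0.35 and 0.72 in fl26 and 0.17 and 0.34 in svb9, and its replication partner Mcm4 had a mean of 0.29. Ccnd2, cyclin D2, had a mean of 0.27, but its other probes had means of 0.30 and -0.17 with mixed signs. Mcm3, of the same helicase as Mcm4, had a mean of -0.25. Mki67, the proliferation antigen, was not well above background in red on all 4 arrays for either probe.

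Of the epithelial lists, luminal markers had 5 of 26 higher and 6 lower, and basal markers 4 of 20 higher and 1 lower. Krt18, a luminal keratin, read -0.33 and -0.10 in fl26 and -0.29 and -0.17 in svb9, with red saturated on 2 arrays, and its partner Krt8 had a mean of -0.05 that centring on the array median turned to 0.10. Spdef, a transcription factor of secretory epithelium, read -0.63 and -0.65 in fl26 and -0.09 and -0.28 in svb9, and with Creb3l4 was lower chiefly in fl26. Tspan8, a tetraspanin, had a mean of 0.46, and Epcam, an epithelial adhesion protein, one of 0.27 below its single old value of 0.67. Trp63, the master factor of basal cells, read 0.78 and 0.86 in fl26 and 0.06 and 0.10 in svb9. The basal keratin Krt15 had a mean of 0.40, and Krt5 read 0.29 and 0.26 in fl26 and -0.15 and 0.05 in svb9. Sfn, the p53-induced 14-3-3 protein, and Dst, a linker of hemidesmosomes, had means of 0.20 and 0.24, and both were below 0 on both old arrays. The other Dst probes had means of 0.26 and -0.07, each with 1 sign on all 4 arrays, so its probes disagree.

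Androgen-responsive genes had 7 of 28 higher and 1 lower on all 4 arrays (25% and 3.57%, against 18.5% and 15% of all genes). With the date term 4 and 1 passed (14.3% and 3.57%, against 9.46% and 10.4%). Psca, prostate stem cell antigen, read 1.33 and 1.56 in fl26 and 0.55 and 0.15 in svb9, and the old arrays disagreed at -0.03 and 1.55. Ell2, a transcription elongation factor, had a mean of 0.40, and Acsl3, an acyl-CoA synthetase, one of 0.38, with fl26 above svb9. Slc45a3, the prostate marker prostein, was the lower member at -0.29.

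Products of the ventral lobe, which mark the labelled tissue, were bright but gave no shared value. Sbp and the brighter probe of Spink1 were saturated in both dyes on all 4 transgenic arrays, so no ratio is given. The second Spink1 probe was not saturated and read 0.01, 0.03, 0.08 and -0.00. Defb50, a defensin, was saturated in green on all 4 arrays and in red on 2, and no ratio is given for it either, although it is counted in the 1.5-fold set. Pbsn, probasin, read -0.67 and -1.34 on date 1 and 0.95 and 1.26 on the later arrays, and its mean of 0.05 had no stable sign. The list of 11 tested genes had medians of -0.67 and -1.34 on date 1 and 0.55 and 0.39 on the later arrays. Without those 3 saturated probes, a choice made after seeing the data, the medians of the other 8 were -0.06 and -0.87 on date 1 and 1.09 and 0.38 later, and none had a shared direction. Products of other lobes and seminal vesicle had 3 tested genes, with Clu and Gsdma higher. The second Gsdma probe had mixed signs.

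**Figure D4:**
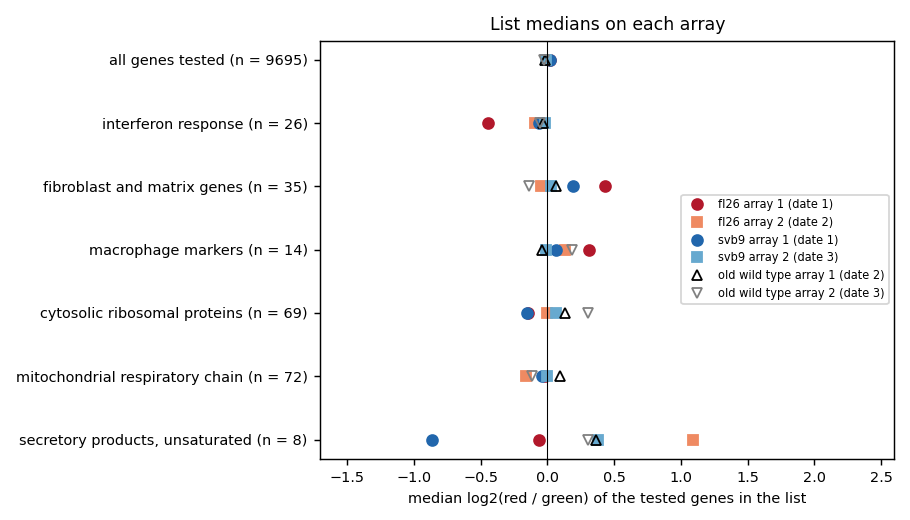
Median log2 ratio of the tested genes (x axis) on each array for 6 lists and for all 9695 genes, with the secretory products limited to the 8 whose probes were not saturated in a dye on all 4 arrays. These products separate the date 1 arrays, at -0.06 and -0.87, from the later ones at 1.09 and 0.38, and the interferon list has fl26 array 1 at -0.44.

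Neuroendocrine markers had 5 tested genes and 2 of them higher on all 4 arrays: Calca, above, and Tph1, which makes serotonin's precursor. Tph1 read 1.68 and 1.47 in fl26 and 0.42 and 0.11 in svb9, and -0.16 and -0.08 in old wild type. The difference from old was 1.04 (unadjusted p = 0.0361 in limma, not passed after adjustment). The other 3 tested markers had no shared direction, and the list median was -0.01.

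Genes of the immediate early and heat shock response had 8 of 28 higher (28.6%) and 2 lower (7.14%), against 18.5% and 15% of all genes. Hspa1a, the inducible HSP70, read 0.60 and 1.46 in fl26 and 0.32 and 0.49 in svb9, against -0.03 and 0.22 in old wild type, and its other probes had means of 0.32 and 0.17. Junb, an AP-1 subunit, read 0.52, 0.70, 0.48 and 1.05, below its single old value of 1.87. The second Junb probe had a mean of 0.02 with mixed signs and old values of 0.18 and 0.05. Atf3, a stress-induced factor, had 1 array at 1.54 and 3 between 0.07 and 0.16. Klf2, above, was the lower member furthest from 0. In the glycolysis and hypoxia list 4 of 24 were higher and none lower, with Adm (adrenomedullin) at 0.40, Hk1 (hexokinase) at 0.29, Car9 (carbonic anhydrase IX) at 0.28 and Slc2a1 (the glucose transporter GLUT1) at 0.22. The other Hk1 probes had means of -0.05 and 0.04 with mixed signs.

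Cytosolic ribosomal proteins had 2 of 69 higher (2.9%) and 21 lower (30.4%) on all 4 arrays, against 18.5% and 15% of all genes. Their median was -0.10. With the date term 6 passed higher (8.7%) and 17 lower (24.6%), against 9.46% and 10.4% of all genes. The list median was -0.16 on date 1 and 0.05 on the later arrays. Rps18 read -1.59 and -1.49 on date 1 and -0.39 and -0.18 later, and Rpl7a and Rps20 followed it at means of -0.70 and -0.51, with red saturated on 2 arrays for all 3 and green on 1 for Rps18. Other probes had means of 0.01 for Rps18 and of -0.06 and 0.01 for Rpl7a, all with mixed signs, so these sizes rest on 1 probe each. Rps13 went the other way in time, at -0.10 and -0.17 on date 1 and -0.92 and -0.68 later. Without background correction the list had 11 lower members. With centring on the array median its median turned to 0.05, still -0.10 from the median of all genes.

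Mitochondrial respiratory chain genes had 8 of 72 higher (11.1%) and 18 lower (25%), with a median of -0.04. With the date term 7 (9.72%) and 16 (22.2%) passed, against 9.46% and 10.4% of all genes. Among members with a shared direction, the 4 furthest from 0 were lower on the second array of each line than on the first. Cox7a2, a cytochrome oxidase subunit, read -0.17 and -1.25 in fl26 and -0.15 and -0.91 in svb9, and -0.61 and -1.07 in old wild type. Cox6a1, of the same complex, had a mean of -0.50, and Ndufb3 and Ndufa1, of complex I, means of -0.43 and -0.42. The second Ndufa1 probe went the other way on all 4 arrays, with a mean of 0.20, and the second Cox7a2 probe had a mean of -0.65. With centring on the array median none of the 72 was lower on all 4 arrays and the list median was 0.11. Splicing factors had 10 of 59 higher and 10 lower, proteasome subunits 6 and 5 of 37, and endoplasmic reticulum folding genes 7 and 5 of 45. Autophagy and lysosome genes had 6 and 2 of 35.

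The glutathione and oxidative stress defence list had 3 of 37 higher and 7 lower, with Gsr, glutathione reductase, at 0.41 (other probes 0.22 and -0.08, with mixed signs) and Prdx3, the mitochondrial peroxiredoxin, at -0.41. A probe of Gpx1, a glutathione peroxidase, was not used in these counts. It read 0.53 and 1.05 in fl26, 0.45 and 0.56 in svb9, and 0.52 and 1.05 in old wild type. Smooth muscle markers had 2 of 18 higher and 3 lower, with Mylk, myosin light chain kinase, at 0.41, whereas its second probe had a mean of -0.30 with mixed signs. Of tissues that can be carried along in dissection, skeletal muscle genes had 7 tested, 2 higher and 3 lower, adipocyte genes 2 tested and erythrocyte genes 1.

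**Figure D5:**
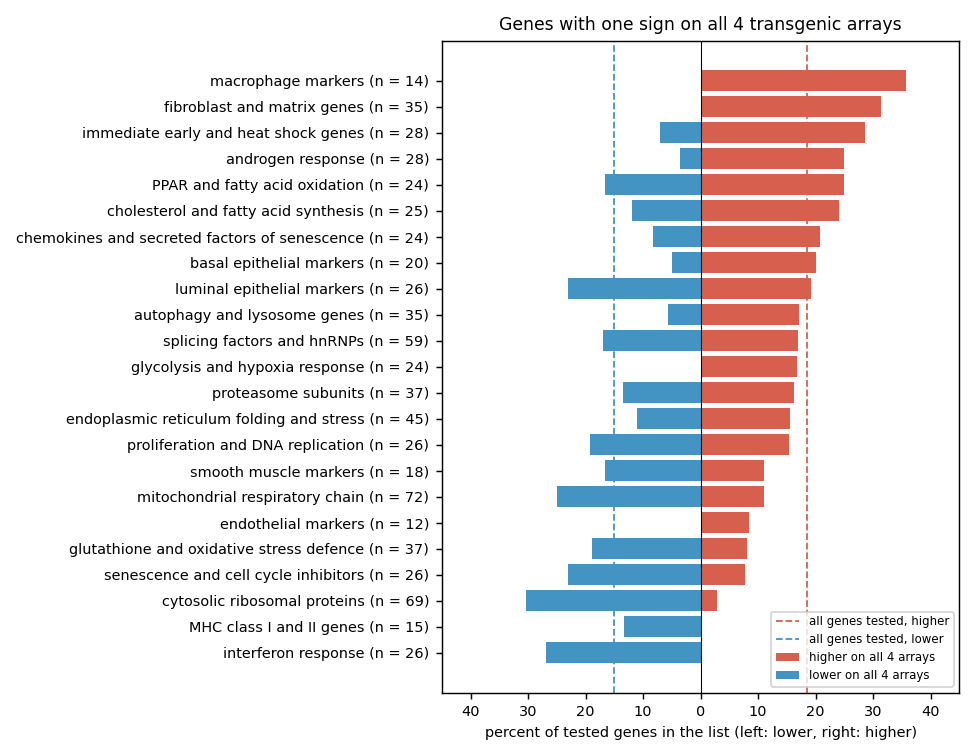
Percent of tested genes in each list of 10 or more, other than the partly saturated secretory products, with the same sign on all 4 transgenic arrays, lower to the left and higher to the right, with dashed lines at the shares among all genes tested (15% lower, 18.5% higher). Interferon genes have no bar to the right and fibroblast and macrophage genes none to the left.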

How the data were processed

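The authors' deposited scanner files, 1 per array, give spot intensities without normalization, read with Agilent Feature Extraction per the file headers. The log10 ratios (red over green) that the authors deposited (also in the series table, which agreed within 0.005) were background-subtracted and dye-normalized by that software, per the file headers, and served as an alternative. From the intensities, log2 ratios were computed with limma 3.58.1 in R 4.3.3, and statmod 1.5.0 for random blocks: normexp background correction with an offset of 50, loess within each array, 2256 control spots and outlier-flagged spots left out, saturated spots kept, and spots of a probe averaged. Gene names came from the reference table (GRCm38.p6) for 31047 of 41174 probes, and 10127 kept the name in the file.

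Probes were tested as the report states, with limma's moderated test, 2-sided, and Benjamini-Hochberg adjustment over all tested probes at 0.05. The 3 comparisons were the mean of the 4 transgenic arrays against 0, transgenic minus old wild type, and fl26 minus svb9. The young pools' own spread enters a test against 0 only if these pools differ between arrays, and a probe with 1 old value enters the second comparison with that value alone. The number of arrays limits the precision. Each gene was represented in the 33 lists by its brightest tested probe. The members, lists and rules were chosen with earlier results of these data known.

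Genes were named by rule among probes with a name in the reference table. Per direction these were the 8 of smallest unadjusted p with a shared direction, since none passed. Further rules took the 5 of smallest unadjusted p against old wild type and a fixed panel of lipoxygenase, prostate and cell cycle genes. The last rule took up to 4 members per list, those furthest from 0 among members with a shared direction. Of several probes of a gene, the first 2 rules and the panel used the one of smallest p. Replicate numbers 1 and 2 recur in all groups, and the labels do not describe them as pairs. Only the fit of the shared change was run on simulated data, without a date pattern, and no result of that run is used here. Some genes that these rules name are not reported here. Alternatives are given at the end.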

Additional observations from a re-analysis of the deposited data

Results flagged for a closer look

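On all 4 transgenic arrays the ratio had 1 sign and on both old arrays the opposite sign for 9 named genes, among 108 named probes. Of all tested probes with both old values, this held for 372 of 2217 higher on all 4 arrays and 162 of 1895 lower. The difference between transgenic and old arrays was 0.64 for Cxcl14, 0.41 for Sfn, 0.42 for Dst, 0.39 for Pparg, 1.35 for Rb1cc1 and 1.04 for Tph1. It was -0.55 for Tap2, -0.27 for Tapbp and -2.54 for BU511373, whose old values were 2.95 and 0.05. The second Tapbp probe differed by 0.13, and the other Dst probes by 0.215 and -0.08. Rb1cc1 read 0.19 and 0.05 in svb9, so its difference comes chiefly from fl26. The difference was tested with limma and passed after adjustment for none of them.

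A single array lay far from the other 3 in 3 of 108 named probes, and chance flags about 1 in 20. The gap to the next array as a share of the whole range was 0.936 for Atf3 and 0.844 for Cbr1, both set by fl26 array 2, and 0.929 for Wdr81, set by svb9 array 2.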

How the results depend on the processing

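For the shared change, limma called 0 probes under 2 line means, a variance trend, a robust prior, a test against 1.5-fold, 1 probe per gene, every background, scaling and filter alternative, and with each array left out in turn. It called 7 probes with 3 group means over 6 arrays, 2678 with the image analysis date as a term, 3600 with the line as a random block (correlation within a line -0.533) and, chosen after seeing the data, 62 within date 1 and 3817 within the later dates. Deviations of same-numbered arrays correlated at 0.649 between the transgenic lines, and with the old arrays at 0.397 in fl26 and 0.215 in svb9. Under a replicate block the shared change had 2678 calls, transgenic minus old 14 and fl26 minus svb9 126.

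Transgenic minus old had 5829 calls, all higher, with median centring, 2810 with median centring on the tested probes and 1 with outlier spots kept. Leaving out 1 array gave 0 to 1 calls there (1 without old wild type replicate 2) and 0 to 3 for fl26 minus svb9 (3 without fl26 replicate 1 and 3 without fl26 replicate 2). The shared sign held for 708 probes with median centring, 2988 centred on the tested probes, 7135 when 1 channel had to be well above background and 10064 with no filter. Of the 81 probes of the 1.5-fold set with both old values, 66 went the same way on both old arrays. The size of that set changes with the setting. The number was 1 of 58 with median centring, 158 of 231 with the deposited log ratio and 111 of 141 with outlier spots kept. Without 1 transgenic array it was 34 of 44 (without fl26 replicate 2) to 146 of 180 (without svb9 replicate 1).

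Interferon genes lower on all 4 numbered 0 with median centring. Under the looser filters they were 14 of 37 tested (1 channel) and 14 of 40 (no filter), against 7 of 26. Fibroblast genes higher numbered 2 with median centring and 6 centred on the tested probes. Macrophage genes higher numbered 2 and 1 under these, and 5 to 8 with an array left out (8 without svb9 replicate 2). Under the looser filters they were 9 of 27 tested (1 channel) and 9 of 28 (no filter), against 5 of 14. Ribosomal genes lower numbered 11 without background correction, 7 with median centring and 10 centred on the tested probes. Respiratory chain genes lower numbered 0 under both median centrings. Median centring turned Hpgd to 0.0327, Krt8 to 0.10 and Tapbp to 0.0406, and Pbsn became -0.0022 with the deposited log ratio and ranged from -0.35 (without svb9 replicate 2) and -0.25 (without fl26 replicate 2) to 0.51 (without svb9 replicate 1). The cause of these shifts was not tested. Of 2364 values of named probes under alternatives, 2094 kept their sign and side of the threshold and 264 became calls.

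Fewest red probes were well above background on the old arrays, with 18% of the tested probes so on old array 1 and 79.8% on old array 2.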
